A study of Mus musculus with 4 samples.

Results

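Molecular chaperones of the heat shock and DnaJ families were followed through the cell classes of the mouse hippocampus. The genes were those whose symbol starts with Hspa, Hsp90, Hspd, Hspe, Hsph or Dnaj, which gave 65 of the 32285 genes measured. Of these, 62 had at least 100 UMIs (unique molecular identifiers, each standing for 1 captured transcript) over 4 libraries in nuclei with at least 500 detected genes. Dnajb13, Dnajc5g and Dnajc22 had 44, 47 and 4 UMIs and were left out. The rule used the total count and no difference between cells or genotypes.

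The study profiled single nuclei from frozen hippocampi, both hemispheres together, of Cyfip2+/R87C knock-in mice (KI) and their wild-type littermates (WT) on the C57BL/6N background. The KI mice carry 1 copy of a missense mutation of Cyfip2, found in patients with West syndrome, in every cell of the body, and have recurrent seizures as adults. The mice were in postnatal week 28, and each of the 2 WT and 2 KI libraries came from 1 mouse. KI replicate 2 is described as R88C in its treatment label and as R87C elsewhere, and it was counted as KI here. The sex of each mouse is not given in the sources used here. In the text, 4 values in a row stand for WT replicates 1 and 2 and then KI replicates 1 and 2.

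Chaperones bind unfolded or partly folded proteins and keep them from aggregating. HSP70 proteins do so in cycles of ATP hydrolysis, which DnaJ proteins (also called HSP40 or J proteins) start and nucleotide exchange factors of the HSP110 family end, and HSP90 proteins take over late folding steps of selected clients such as kinases and steroid receptors. Each compartment has its own set. In neurons the constitutive HSP70, Hspa8, also strips the clathrin coat from endocytic vesicles together with the J protein auxilin, the product of Dnajc6. Heat shock factor 1 turns on the cytosolic set through heat shock elements, which are inverted repeats of GAA. The unfolded protein response of the endoplasmic reticulum (ER) turns on the ER set through ER stress response elements.

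Promoters from RefSeq on GRCm38.p6, from 250 bases before to 50 bases after the start of transcription, were matched for 49 of the 62 genes, and both strands were searched. The ER stress response element, CCAAT and then CCACG with any 9 bases between them, was found at 3 of them, Hspa5, Hsp90b1 and Dnajc3, and at 37 of 27025 genes (0.137%) in the whole table. The heat shock element of 3 units, GAA, TTC and GAA with any 2 bases between neighbours, was found at 4 of them, Dnajb6, Hspd1, Hspe1 and Hsph1, and at 0.662% of all genes. The sequences given are every match of the ER stress response element in the 49 promoters, the heat shock elements of 3 or more units and the 2-unit match of the inducible Hspa1a, so that genes with and without a KI difference can be set side by side. Each is 30 bases on the strand of its gene, 5′ to 3′, with the bases that match the motif in capitals and positions counted from the RefSeq start.
Hspa5, chr2:34772020-34772049, plus strand, match at -65: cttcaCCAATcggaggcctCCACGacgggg
Hsp90b1, chr10:86705632-86705661, minus strand, match at -212: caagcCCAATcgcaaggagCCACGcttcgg
Hsp90b1, chr10:86705527-86705556, minus strand, reverse match at -107: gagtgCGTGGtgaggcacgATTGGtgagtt
Dnajc3, chr14:118937822-118937851, plus strand, match at -105: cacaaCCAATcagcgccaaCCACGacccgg
Hspe1, chr1:55088053-55088082, plus strand, match at -89: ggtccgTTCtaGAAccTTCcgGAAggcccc
Hsph1, chr5:149636287-149636316, minus strand, reverse match at 36: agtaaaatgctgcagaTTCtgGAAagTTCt
Dnajb6, chr5:29735844-29735873, plus strand, match at -46: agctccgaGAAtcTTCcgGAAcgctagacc
Hspa1a, chr17:34972242-34972271, minus strand, match at -104: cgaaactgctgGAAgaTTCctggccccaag

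The Hspe1 match holds 4 such units in a row and lies between Hspe1 and Hspd1, which are read away from each other on chromosome 1, so that both genes share it. The window before Hspa1b (chr17:34959324-34959353, minus strand) has the same 30 bases as that before Hspa1a, and these are near-identical copies whose reads cannot be safely assigned to either. The Hspa1a match has only 2 units, GAANNTTC, which overlaps the 3-unit motif and was found at 9 of the 49 genes and at 9.04% of all genes. The other 2-unit order, TTCNNGAA, was found at 6 of the 49 and at 9.60% of all genes. In GENCODE M21 on GRCm38 the windows at Hspa5, Hsph1 and Dnajb6 fall inside the annotated gene, that at Hspe1 falls inside the span of Hspd1, and the others lie before the gene. A match describes the letters and does not show that a factor binds there.

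The libraries held 73009975 to 80913580 UMIs, and 52032 nuclei were kept, 11932 to 14927 in each library, with a median of 3868 to 4699 UMIs per nucleus. Pairs of libraries shared 40 to 67 cell barcodes. The nuclei were clustered without the chaperone genes, and 23 of 37 clusters were named from marker genes. Of these, 22 made up the 15 classes used here, and the cluster named ependymal cells had too few nuclei per library. That cluster and the 14 clusters without a name, which held 19.4% of the nuclei, entered only the sums over all nuclei. In 14 classes at least 4 markers had their highest mean level in their own class, but in the subicular or cortical excitatory neurons this held for only 2 of 7, so that name is weak. In 2 classes different clusters held most of the nuclei of each genotype. Among DG granule neurons, cluster 0 held 4137, 3132, 196 and 747 nuclei and cluster 2 held 147, 153, 2266 and 1467. Among oligodendrocytes, cluster 4 held 1976, 1212, 36 and 83 nuclei and cluster 5 held 56, 14, 2069 and 777. Levels are given as CPM, the count of a gene scaled to a common total of UMIs, from the sums of a class in a library. They are compared between classes and genotypes and not between genes. Cyfip2 itself stood at 182, 180, 172 and 171 CPM over all nuclei, which does not check the genotype because the mutation changes 1 codon.

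The 62 genes together made up 0.333%, 0.313%, 0.272% and 0.273% of all UMIs. Their summed level was 3234 ± 140 CPM in WT and 2727 ± 8.44 CPM in KI (SD, n = 2 each), and both KI libraries lay below both WT libraries. Most of this difference came from 6 genes, Hspa8, Hspa5, Hsp90aa1, Hsp90ab1, Hsp90b1 and Hsph1. These were grouped after their values were seen, so their part in the difference is a description and not a test. They summed to 844 ± 131 CPM in WT and to 515 ± 38.9 CPM in KI. The other 56 genes summed to 2390 ± 8.58 CPM in WT and to 2212 ± 30.5 CPM in KI. The same order of groups was found in oligodendrocytes, at 0.506%, 0.478%, 0.370% and 0.378% of the UMIs. In CA1 pyramidal neurons the shares were 0.317%, 0.304%, 0.254% and 0.270%. Sums over all nuclei mix classes whose numbers differ between libraries. There were 561, 603, 213 and 292 astrocytes, 4284, 3285, 2462 and 2214 DG granule neurons and 2032, 1226, 2105 and 860 oligodendrocytes. Subicular or cortical neurons numbered 219, 965, 765 and 1526. The part of this mix in the KI values over all nuclei was not tested.

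**Figure D1:**
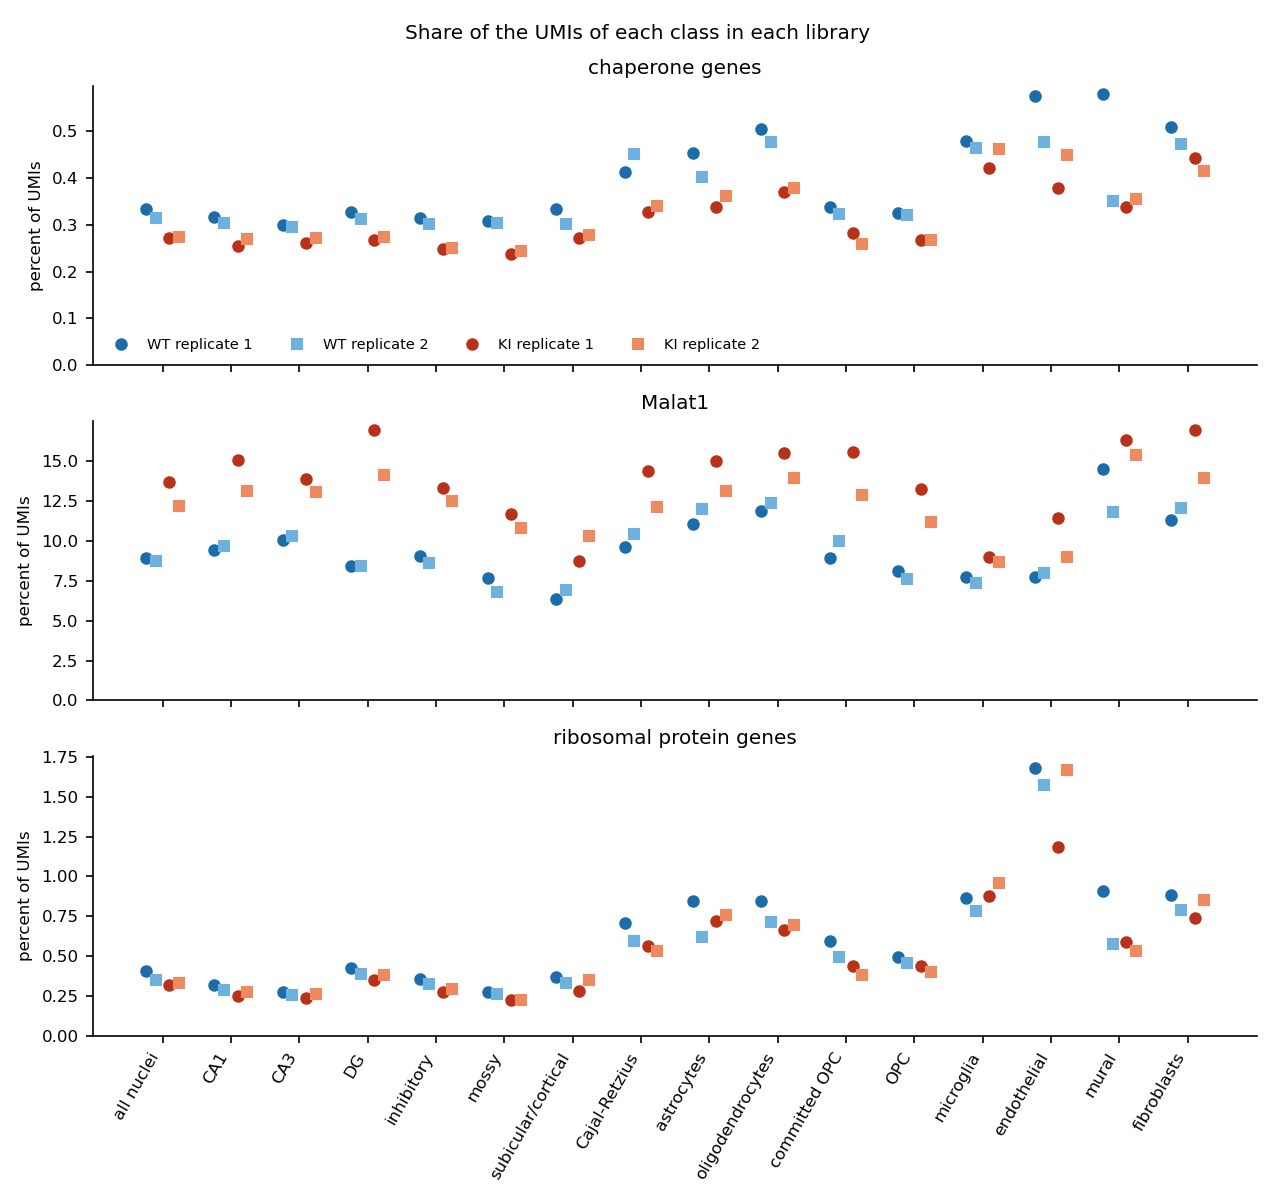
Percent of the UMIs of a library taken by the 62 chaperone genes, by Malat1 and by the ribosomal protein genes, for all nuclei and each class, with a point for each of the 2 WT and 2 KI libraries. Over all nuclei the chaperone genes stood at 0.333% and 0.313% in WT and at 0.272% and 0.273% in KI, while Malat1 stood at 8.90% and 8.71% in WT and at 13.7% and 12.2% in KI.

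Other transcripts moved along with the genotype. Malat1, an abundant noncoding RNA of the nucleus, took 8.90%, 8.71%, 13.7% and 12.2% of all UMIs. Ribosomal protein transcripts took 0.407%, 0.348%, 0.320% and 0.332%, and mitochondrial transcripts between 0.0451% and 0.0634% with overlapping groups. The part of these shifts in the chaperone results was not tested, apart from the scaling to ribosomal protein transcripts given with the all-nuclei comparison.

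Several chaperones took their highest share of UMIs in 1 class. Endothelial cells had the highest level of Hspa12b, a divergent HSP70 known from blood vessels, at 172, 203, 130 and 249 CPM, followed by fibroblasts with a mean of 33.8 CPM, and no other class exceeded 22.5 CPM in any library. Every endothelial library was above every library of the other classes. These classes are small, with 22 to 50 endothelial nuclei per library, so 1 library rests on 12 to 30 UMIs of Hspa12b.

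Dnajb2, a J protein with ubiquitin-binding motifs, was highest in oligodendrocytes at 150, 160, 182 and 85.4 CPM. The other classes had means of at most 60.1 CPM, in committed oligodendrocyte precursors (OPC), which reached 141 CPM in KI replicate 1 from 12 UMIs. KI replicate 2 was the lowest of the oligodendrocyte libraries and overlapped that value. Dnajc21, which takes part in the maturation of the large ribosomal subunit, was highest in CA1 pyramidal neurons at 69.9, 73.3, 78.8 and 77.6 CPM, followed by CA3 pyramidal neurons at 48.4, 52.8, 46.0 and 50.4 CPM. These groups did not overlap. Dnajc6, auxilin, was highest in CA3 pyramidal neurons at 408, 402, 391 and 374 CPM, followed by mossy cells with a mean of 341 CPM. Mossy cells reached 376 CPM in a library, so these classes overlapped.

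Microglia led for Dnajc5, the cysteine string protein that guards synaptic vesicle proteins, at 109, 123, 149 and 178 CPM, and for Dnajc2, a ribosome-associated J protein, at a mean of 66.6 CPM against 30.6 CPM in the next class. Fibroblasts led for Hspa5, the main HSP70 of the ER, at 353, 335, 160 and 214 CPM, and for Dnajc5b, a relative of Dnajc5, at 39.3, 7.62, 49.4 and 22.3 CPM. The Dnajc5b values rest on 2 to 13 UMIs per library and spread widely. For 3 of these genes the libraries overlapped with those of the next class. Fibroblasts reached 110 CPM of Dnajc5, endothelial cells 203 CPM of Hspa5 and committed OPC 11.9 CPM of Dnajc5b. Dnaja1, a general partner of cytosolic HSP70, was highest in endothelial cells with a mean of 175 CPM, ahead of fibroblasts at 136 CPM, and the libraries of these 2 classes overlapped.

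Hspa8 and the cytosolic HSP90 genes Hsp90aa1 and Hsp90ab1 had their highest mean CPM in endothelial cells or oligodendrocytes and their lowest in CA3 pyramidal neurons or mossy cells. Hspa8 stood at 586 CPM in oligodendrocytes and 169 CPM in CA1 pyramidal neurons of WT replicate 1, but at 0.917 and 0.947 UMIs per nucleus. An oligodendrocyte nucleus yields far fewer UMIs than a pyramidal nucleus, so the CPM of a gene measures its share there and not its amount. Over the 15 classes, Hspa5 ranged from 0.289 to 0.829 UMIs per nucleus in that library, with committed OPC lowest and fibroblasts highest.

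Counted per nucleus, Hspa8, Hspa5 and Hsp90b1 spread less over the classes than most genes, and Dnajc1 and Dnajc6, which had the most UMIs of the 62 genes, spread more. Over CA1 and CA3 pyramidal, DG granule and inhibitory neurons, oligodendrocytes, astrocytes, OPC and microglia the highest class exceeded the lowest 1.65, 1.46, 2.04 and 1.51 times for Hspa8 in the 4 libraries, while the median gene with at least 200 UMIs spread 6.29, 7.17, 7.93 and 6.92 times. With the subicular or cortical neurons added, the values of Hspa8 were the same and the medians were 6.42, 7.24, 8.05 and 6.92. Over the first 8 classes Hspa5 and Hsp90b1 spread 1.80 and 1.79 times in WT replicate 1, Dnajc1 8.35 times and Dnajc6 22.5 times. Microglia held 62.8% to 81.0% and oligodendrocytes 75.2% to 92.8% of the all-nuclei mean of Hspa8 UMIs per nucleus. Genes that mark other cells were found there too, at lower shares of their own means. The 8 markers of inhibitory neurons together stood at 9.52% to 16.7% in microglia and 10.8% to 13.1% in oligodendrocytes, and the 7 markers of DG granule neurons at 11.3% to 23.7% and 20.9% to 25.4%. The 6 markers of CA1 pyramidal neurons stood at 3.80% to 10.4% in microglia and 34.2% to 55.1% in oligodendrocytes. The 8 markers of oligodendrocytes stood at 21.8% to 32.4% in microglia. The markers of inhibitory neurons stood at 76.1% to 116% of their all-nuclei mean in DG granule neurons. These lists hold genes that are also high outside their class. Pex5l had a mean of 1903 CPM in a class other than CA1 pyramidal neurons. Nxph1 and Adarb2 had means of 1508 and 2060 CPM in a class other than inhibitory neurons. The sums therefore do not tell a class's own transcripts from free RNA. Free RNA can add UMIs of a gene to nuclei of every class, and its part in the levels of Hspa8, Hspa5 and Hsp90b1 within a class, and in their KI values there, was not tested.

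**Figure D2:**
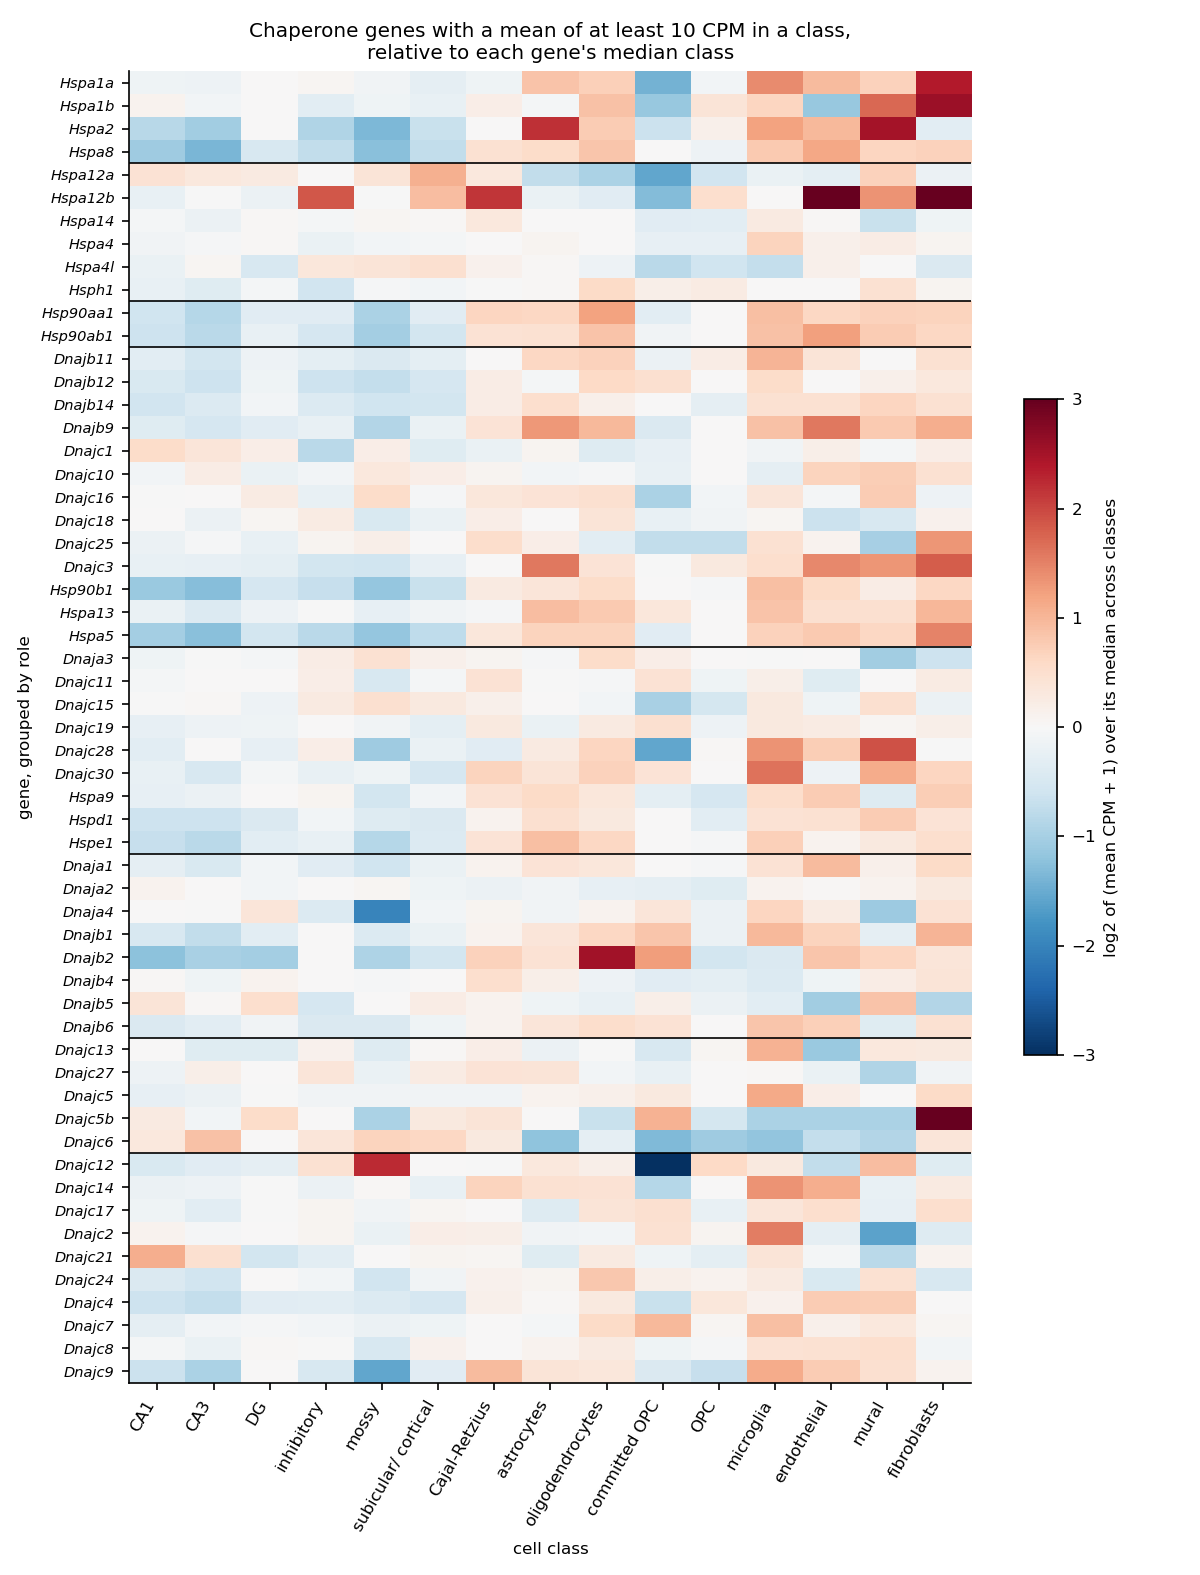
Log2 of the mean CPM (plus 1) of 57 chaperone genes in each of 15 classes, relative to the median of the gene over the classes, as a colour scale with genes in rows and classes in columns. Hspa12b stands out in endothelial cells (mean 188 CPM), Dnajb2 in oligodendrocytes (144 CPM), Dnajc5b in fibroblasts (29.7 CPM) and Dnajc21 in CA1 pyramidal neurons (74.9 CPM).

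The 4 pairs of classes were compared with edgeR's quasi-likelihood test, with the mouse as a block and Benjamini-Hochberg adjustment over all genes. Between oligodendrocytes and astrocytes, 12 of 52 chaperone genes tested were higher in oligodendrocytes (background over all genes 19.1%) and 3 were lower (background 21.6%). Dnajb2 differed most, by 2.15 ± 0.13 (log2 fold change ± SE, adjusted p = 1.94e-09). Hspa2, an HSP70 best known from the testis, was lower by -1.48 ± 0.18 on the same scale (adjusted p = 4.22e-06), at 16.7, 13.6, 17.9 and 11.2 CPM in oligodendrocytes against 52.6, 34.7, 53.0 and 25.3 CPM in astrocytes. Dnajc3, an ER cochaperone of Hspa5 that also inhibits the kinase PERK, was lower by -1.17 ± 0.11 (adjusted p = 4.11e-07).

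Between inhibitory and CA1 pyramidal neurons, 9 of 56 genes were higher in inhibitory neurons (background 25.3%) and 13 were lower (background 26.5%). Dnajc1, a membrane J protein of the ER, stood at 168, 166, 126 and 140 CPM in inhibitory neurons and at 425, 426, 337 and 375 CPM in CA1 pyramidal neurons. The groups lay far apart, with a log2 fold change of -1.54 ± 0.06 (adjusted p = 6.38e-08). Dnajc21 was lower by -1.58 ± 0.07 (adjusted p = 1.88e-07), and Dnajb5, a cytosolic J protein close to Dnajb1, by -1.10 ± 0.18 (adjusted p = 0.000672). Dnajb2 was higher by 1.15 ± 0.10 (adjusted p = 1.21e-05). Hspa12b was higher by 2.65 ± 0.24 (adjusted p = 1.71e-05), at 3.81, 8.65, 10.1 and 9.16 CPM in inhibitory neurons and 0.890 to 1.60 CPM in CA1 pyramidal neurons, both far below endothelial cells.

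Between DG granule and CA1 pyramidal neurons, 12 of 58 genes were higher in DG granule neurons (background 19.5%) and 8 were lower (background 21.0%). Dnajc21 differed most, at 26.3, 26.7, 19.5 and 22.3 CPM in DG granule neurons, by -1.76 ± 0.11 on the log2 scale (adjusted p = 7.85e-05). Between CA3 and CA1 pyramidal neurons, 7 of 57 genes were higher (background 18.7%) and 7 were lower (background 17.7%), all by less than 1 on the log2 scale. The 2 with the widest gaps were Dnajc6 and Dnajc21, at 0.59 and -0.58. The shares of chaperone genes that differed were 12.3% to 23.2% in each direction with 1 exception, the 3 of 52 lower in oligodendrocytes.

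The comparison of KI with WT asked whether chaperone expression differs in the adult epileptic hippocampus. It rests on 2 mice per group. Its p-values set the group difference against a spread that edgeR estimates for each gene with help from the other genes. An exact permutation test of a single value could not go below 0.333. Over all nuclei, 1 of the 62 genes passed an adjusted p of 0.05, the ER chaperone Hspa5, which was lower in KI (background of genes lower in KI 0.382%). Both KI libraries lay below both WT libraries for 33 of the 62 genes (53.2%, background 34.3%) and above them for 7 (11.3%, background 26.7%). The median log2 fold change was -0.13 over the 62 genes and 0.01 over all 21718 genes tested. An unadjusted p under 0.05 was given to 13 of the 62 (21.0%), against a background of 24.3%, and DESeq2 called 9 (14.5%, background 8.42%). Genes of the same library share its depth and RNA quality, so these counts are descriptions. When each library was scaled to its ribosomal protein transcripts, a choice made after the data were seen, both medians moved up, to 0.03 over the 62 genes and 0.16 over all genes.

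**Figure D3:**
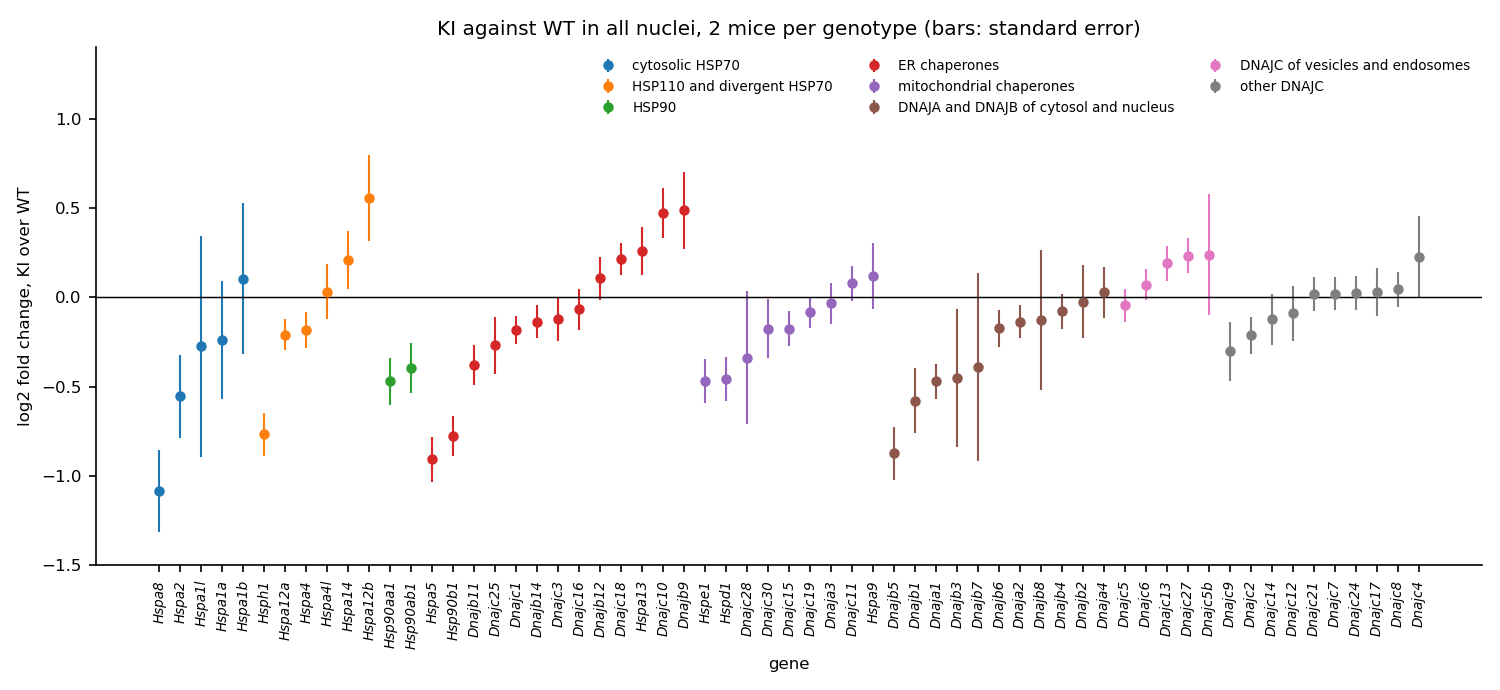
Log2 fold change of KI over WT in the counts summed over all nuclei for 61 chaperone genes, grouped by role, with bars for the SE from edgeR (2 libraries per group). Hspa8, Hspa5, Dnajb5, Hsp90b1 and Hsph1 lie furthest below 0, between -1.08 and -0.77, and Hspa12b, Dnajb9 and Dnajc10 furthest above, between 0.47 and 0.56. Only Hspa5 passed the adjusted threshold.

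The ER group, the largest, gave 7 results past the threshold in 153 tests within classes (4.58%, background over all genes in the 15 classes 2.58%), all from Hspa5 and Hsp90b1. Against the same background the cytosolic HSP70 group gave 3 in 29 (10.3%), all from Hspa8, the cytosolic HSP90 group 2 in 30 (6.67%) and the HSP110 and divergent HSP70 group 2 in 66 (3.03%). The J proteins of vesicles and endosomes gave 1 in 52 (1.92%), the J proteins of subfamilies A and B 1 in 84 (1.19%), and the mitochondrial chaperones and the remaining DNAJC genes 0 in 89 and 0 in 93. Hspa5, also called BiP, binds nascent chains as they enter the ER and holds the sensors of the unfolded protein response inactive. The gene (ENSMUSG00000026864) lies at chr2:34771970-34777547 on the plus strand of GRCm38. Over all nuclei it stood at 88.0, 71.3, 39.9 and 42.1 CPM. Both KI libraries were at about the same level, well under both WT libraries, with a log2 fold change of -0.91 ± 0.13 (adjusted p = 0.0477). The call was lost without WT replicate 1 (-0.75, adjusted p = 0.102) and with doublets kept (-0.90, adjusted p = 0.0502).

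Within classes Hspa5 was lower in CA1 pyramidal neurons, at 65.6, 61.3, 26.4 and 33.0 CPM, by -1.01 ± 0.12 (adjusted p = 0.00916). This was the only one of the 17 results past the threshold that stayed past it without each library in turn, with a highest adjusted p of 0.0483 without WT replicate 1. In inhibitory neurons it stood at 78.1, 68.5, 32.7 and 36.8 CPM and was lower by -0.97 ± 0.14 (adjusted p = 0.0202). In DG granule neurons it stood at 91.7, 77.6, 43.2 and 46.8 CPM and was lower by -0.78 ± 0.12 (adjusted p = 0.0156). The groups did not overlap in any of these classes. Without WT replicate 1 the adjusted p rose to 0.223 in inhibitory and 0.237 in DG granule neurons, and without WT replicate 2 to 0.0958 and 0.0940.

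In astrocytes, where the level of Hspa5 was higher, it stood at 233, 179, 92.0 and 101 CPM, with a log2 fold change of -1.03 ± 0.21 that just missed the threshold (adjusted p = 0.0584). Oligodendrocytes had 191, 170, 127 and 120 CPM (-0.47, adjusted p = 0.228), and in microglia the groups overlapped at 194, 139, 100 and 178 CPM. The fold change of Hspa5 was negative in 14 of 14 classes in which it was tested, from -1.33 to -0.35. The classes of a library come from 1 mouse and are not independent.

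Hsp90b1, the HSP90 of the ER (GRP94; ENSMUSG00000020048, chr10:86690209-86705509, minus strand), folds secreted and membrane proteins such as integrins. It stood at 99.4, 87.7, 48.5 and 57.2 CPM over all nuclei, again with both KI libraries below both WT libraries (-0.77 ± 0.11, adjusted p = 0.0525). It was lower in 4 classes. It stood in CA1 pyramidal neurons at 73.8, 66.1, 29.8 and 43.4 CPM (-0.86 ± 0.16, adjusted p = 0.0295).
In CA3 pyramidal neurons it stood at 61.6, 57.9, 31.9 and 38.5 CPM (-0.69 ± 0.14, adjusted p = 0.0449), in DG granule neurons at 110, 98.6, 50.8 and 68.4 CPM (-0.68 ± 0.15, adjusted p = 0.0372) and in inhibitory neurons at 96.1, 88.4, 43.9 and 57.6 CPM (-0.76 ± 0.14, adjusted p = 0.0378). KI replicate 1 was the lowest library in each of the 4 classes and KI replicate 2 the next. Without WT replicate 1 all 4 calls were lost (adjusted p 0.140, 0.703, 0.325 and 0.371 in the order above), and without WT replicate 2 those in CA3, DG granule and inhibitory neurons (0.498, 0.183 and 0.186). With doublets kept the inhibitory value was 0.0585. Microglia had 218, 217, 193 and 249 CPM of Hsp90b1, with overlapping groups and a log2 fold change of -0.02 ± 0.27. A gene of unknown function, Gm15344, overlaps Hsp90b1 on its strand, so reads in the overlap could belong to either.

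**Figure D4:**
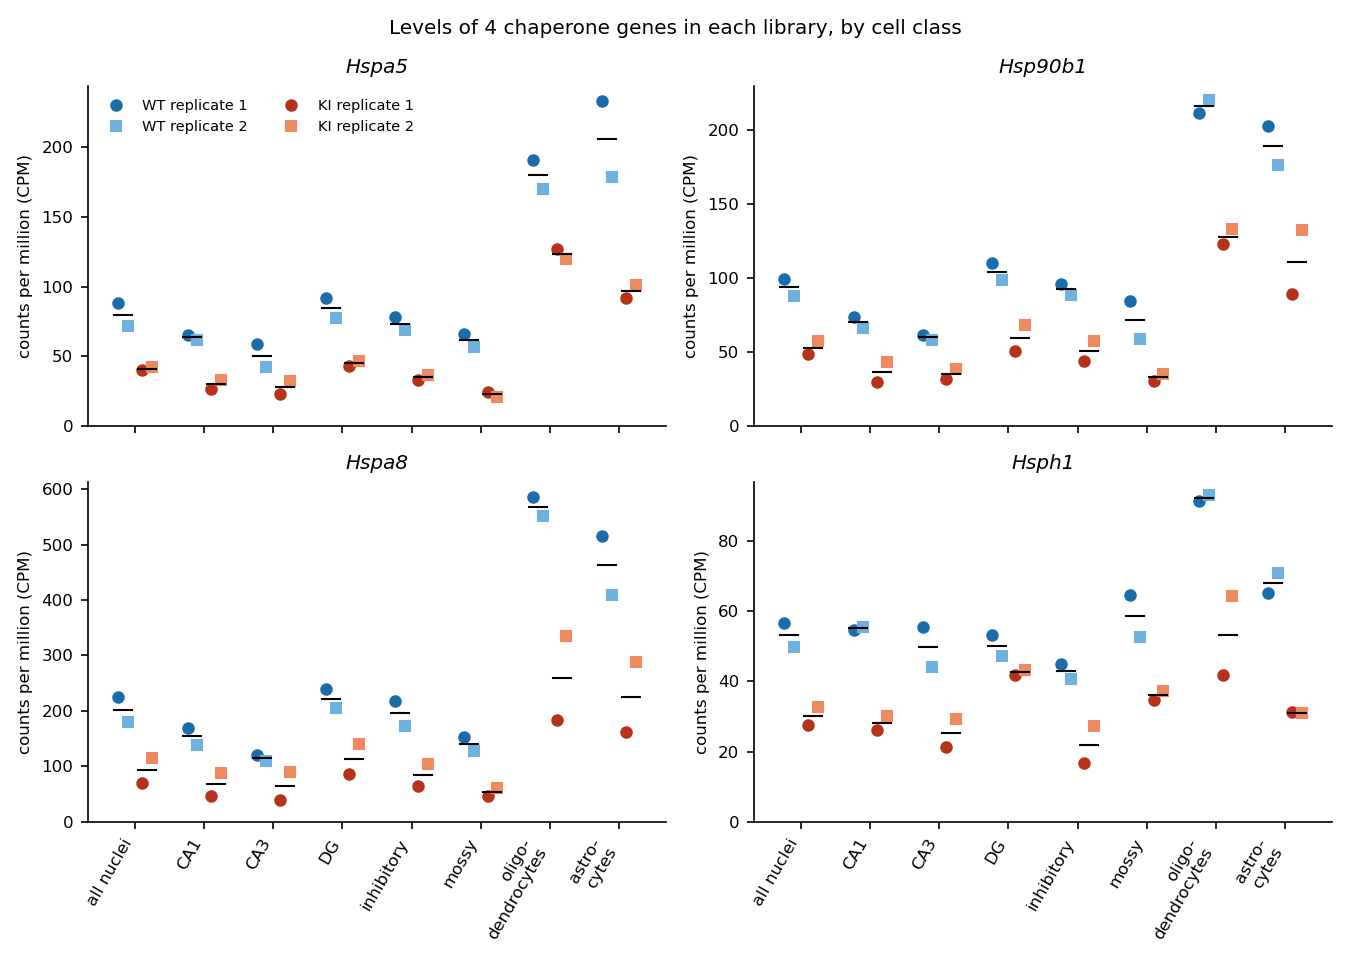
CPM of Hspa5, Hsp90b1, Hspa8 and Hsph1, with a point for each of the 2 WT and 2 KI libraries and a bar at the mean of each genotype. Shown are all nuclei, CA1 and CA3 pyramidal, DG granule and inhibitory neurons, mossy cells, oligodendrocytes and astrocytes. KI points lie below WT points in most classes shown, as for Hspa5 in CA1 pyramidal neurons (65.6 and 61.3 against 26.4 and 33.0 CPM). Hsph1 in DG granule neurons (53.1 and 47.1 against 41.9 and 43.2 CPM) shows little gap.

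The J proteins of the ER did not move together. Of the 13 ER genes, 8 had a negative fold change over all nuclei, from -0.91 to 0.49, with a median of -0.12, and only Hspa5 passed the test. Dnajb11, a secreted J protein that delivers clients to Hspa5, stood at 25.0, 23.4, 18.3 and 17.7 CPM (-0.38, adjusted p = 0.133). Dnajc3, whose promoter holds the same element as Hspa5 and Hsp90b1, stood at 65.8, 64.4, 62.0 and 53.1 CPM (-0.12, adjusted p = 0.542). Dnajc10, an ER disulfide reductase with a J domain, stood at 53.1, 57.3, 81.2 and 66.0 CPM, with a log2 fold change of 0.47 ± 0.14 that did not pass the test (adjusted p = 0.130). Its fold change was positive in 13 of 13 classes, as was that of Dnajb9, a J protein of ER-associated degradation, in 9 of 9, and neither passed the test in any class. Dnajb11, Dnajc10 and Dnajb9 were singled out after their values were seen.

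Among the cytosolic HSP70 genes, Hspa8 carried the difference. This constitutive HSP70 (ENSMUSG00000015656, chr9:40800984-40810087, plus strand) had the most UMIs of them in every class. Over all nuclei it stood at 225, 180, 70.0 and 115 CPM, with a log2 fold change of -1.08 ± 0.23 that missed the threshold (adjusted p = 0.0812). The groups did not overlap, but the 2 KI libraries differed more from each other than for Hspa5, and KI replicate 1 was the lowest library in all 15 classes.

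Hspa8 was lower in 3 classes. It stood at 169, 139, 46.6 and 88.2 CPM in CA1 pyramidal neurons (-1.12 ± 0.25, adjusted p = 0.0445), at 217, 173, 64.6 and 105 CPM in inhibitory neurons (-1.10 ± 0.19, adjusted p = 0.0317) and at 154, 127, 46.9 and 60.6 CPM in mossy cells (-1.30 ± 0.27, adjusted p = 0.0292). The mossy cell values rest on 23 to 95 UMIs per library. Both KI libraries lay under both WT libraries in each of them. Without WT replicate 1 the adjusted p was 0.0710, 0.220 and 0.294, and without WT replicate 2 the call in inhibitory neurons was lost at 0.0552. Without KI replicate 1 the fold change shrank to -0.78 in CA1 pyramidal and -0.83 in inhibitory neurons, and both stayed past the threshold. DESeq2 gave an adjusted p of 0.0799 in inhibitory neurons and 0.135 in mossy cells, where the call was also lost with nuclei gated by their own markers (0.136) and with ribosomal scaling (0.0668).

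Hspa8 stood at 240, 205, 86.1 and 141 CPM in DG granule neurons (-0.84 ± 0.21, adjusted p = 0.0563) and at 586, 551, 183 and 335 CPM in oligodendrocytes (-1.09 ± 0.24, adjusted p = 0.0881), in both with KI below WT. Its fold change was negative in 15 of 15 classes, from -1.30 to -0.78.

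The stress-inducible HSP70 genes Hspa1a and Hspa1b were near the limit of detection. Hspa1a stood at 2.24, 1.39, 1.20 and 1.77 CPM and Hspa1b at 1.497, 0.920, 0.816 and 1.70 CPM over all nuclei, with 81 to 156 and 55 to 125 UMIs per library and overlapping groups. Their fold changes were -0.24 ± 0.33 and 0.11 ± 0.42 (adjusted p = 0.673 and 0.897), and the sign turned for Hspa1a without WT replicate 1 (0.14) and for Hspa1b without WT replicate 2 (-0.21) or KI replicate 2 (-0.51). Fibroblasts had the highest means, 12.8 and 12.0 CPM, from at most 8 UMIs in a library. Hspa1l, expressed in the testis, had under 1 CPM in each library over all nuclei, and Hspa2 stood at 8.65, 6.08, 5.23 and 4.43 CPM (-0.55, adjusted p = 0.214).

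Hsph1, the HSP110 that resets cytosolic HSP70 by nucleotide exchange (ENSMUSG00000029657, chr5:149614287-149636376, minus strand), stood at 56.5, 49.6, 27.7 and 32.6 CPM over all nuclei (-0.77 ± 0.12, adjusted p = 0.0563). In CA1 pyramidal neurons it stood at 54.7, 55.5, 26.2 and 29.997 CPM and was lower in KI by -0.89 ± 0.11 (adjusted p = 0.0106). In CA3 pyramidal neurons it stood at 55.4, 44.1, 21.3 and 29.3 CPM and was lower by -0.91 ± 0.19 (adjusted p = 0.0474). Both groups were apart in each class. Without WT replicate 1 these calls were lost (adjusted p = 0.0691 and 0.701), as was that in CA3 without WT replicate 2 (0.314) and with nuclei gated by their own markers (0.0596).

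In DG granule neurons Hsph1 stood at 53.1, 47.1, 41.9 and 43.2 CPM, with a fold change of -0.10 ± 0.12 (adjusted p = 0.603). The difference between classes was itself tested with a class-by-genotype term. The KI effect in DG granule neurons exceeded that in CA1 pyramidal neurons by 0.80 ± 0.11 (adjusted p = 0.000577) and that in CA3 pyramidal neurons by 0.83 ± 0.14 (adjusted p = 0.000891). Both differences stayed past the threshold in 10 of 10 settings, with every library left out in turn among them, at adjusted p of at most 0.0246 and 0.0124. The 2 genotypes of DG granule neurons come mostly from different clusters, as given above, so the gap between genotypes and that between clusters cannot be told apart there. In all, 7 of 59 genes tested differed in their KI effect between DG granule and CA1 pyramidal neurons (background 13.5%) and 2 of 57 between DG granule and CA3 pyramidal neurons (background 11.5%).

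Of the 6 genes in this group, 3 had a negative fold change over all nuclei and 5 in CA1 pyramidal neurons, where only Hsph1 passed the test. Hspa4, another HSP110, stood at 103, 104, 92.9 and 83.4 CPM over all nuclei, with KI below WT (-0.18, adjusted p = 0.317). Hspa12a, a divergent HSP70, stood at 86.0, 89.9, 69.7 and 77.2 CPM, also with KI below WT (-0.21, adjusted p = 0.215), and its fold change was negative in 11 of 12 classes. Hspa4l, the close relative of Hspa4, stood at 62.1, 65.7, 71.0 and 54.7 CPM with overlapping groups (0.03, adjusted p = 0.917). Hspa14, which acts at the ribosome with Dnajc2, had positive fold changes in 10 of 10 classes, none of which passed the test.

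The cytosolic HSP90 genes were lower in inhibitory neurons. Hsp90ab1, the constitutive form, stood there at 279, 223, 144 and 155 CPM (-0.65 ± 0.13, adjusted p = 0.0446), and Hsp90aa1, the inducible form, at 185, 151, 100 and 103 CPM (-0.62 ± 0.13, adjusted p = 0.0496). The KI libraries were close to each other and below both WT libraries, of which replicate 1 was the higher. Both results lie near the threshold and were lost without WT replicate 1 (adjusted p = 0.516 and 0.567), without WT replicate 2 (0.118 and 0.141), without KI replicate 1 (0.0647 and 0.0566) and with doublets kept (0.0608 and 0.0661). That of Hsp90aa1 was also lost with nuclei of at least 1000 genes (0.0534) and with ribosomal scaling (0.0591). Over all nuclei Hsp90ab1 stood at 285, 220, 190 and 181 CPM (-0.40, adjusted p = 0.168) and Hsp90aa1 at 183, 143, 112 and 115 CPM (-0.47, adjusted p = 0.123). Both had negative fold changes in 15 of 15 classes.

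Of the 11 J proteins of the cytosol and nucleus in subfamilies A and B, 10 had a negative fold change over all nuclei, with a median of -0.17 and none past the threshold. Dnajb5 was lower in CA1 pyramidal neurons, at 16.5, 18.2, 7.43 and 7.88 CPM, by -1.09 ± 0.16 (adjusted p = 0.0161). The KI libraries were close to each other and far from the WT libraries. The call was lost without WT replicate 1 (adjusted p = 0.0623) and without WT replicate 2 (0.0823). In DG granule neurons Dnajb5 stood at 16.5, 18.9, 11.3 and 7.35 CPM (-0.77, adjusted p = 0.0946). Dnaja1 stood at 96.7, 87.5, 64.6 and 63.5 CPM over all nuclei (-0.47 ± 0.10, adjusted p = 0.0761) and had a negative fold change in 14 of 14 classes, with no class past the threshold. Dnajb1, the inducible partner of HSP70, stood at 6.88, 5.84, 4.27 and 3.94 CPM (-0.58, adjusted p = 0.145).

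The J proteins of vesicles and endosomes held the only gene that was higher in KI. Dnajc6 (ENSMUSG00000028528, chr4:101496648-101642799, plus strand) recruits Hspa8 to clathrin-coated vesicles. It stood at 239, 242, 292 and 295 CPM in CA1 pyramidal neurons (0.38 ± 0.08, adjusted p = 0.0455), with the 2 libraries of each genotype almost equal. In CA3 pyramidal neurons it stood at 408, 402, 391 and 374 CPM and in DG granule neurons at 231, 231, 191 and 204 CPM, and neither class passed the test. The CA1 result was lost with DESeq2 (adjusted p = 0.0536), with scaling to library totals (0.0712), with doublets kept (0.0523) and without WT replicate 1 or 2 (0.498 and 0.424). Dnajc5 stood at 63.0, 58.9, 56.3 and 57.7 CPM over all nuclei (-0.04, adjusted p = 0.785).

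None of the 9 mitochondrial chaperones passed the test in any class or over all nuclei. Hspd1 and Hspe1, the large and small subunits of the mitochondrial chaperonin, share the divergent promoter shown above and overlap at their starts on opposite strands. Hspd1 stood at 34.6, 29.5, 21.4 and 23.7 CPM (-0.46 ± 0.12, adjusted p = 0.113) and Hspe1 at 32.3, 27.3, 20.7 and 20.8 CPM (-0.47 ± 0.12, adjusted p = 0.112). In both genes the KI libraries lay below the WT libraries by a like amount. Hspa9, the mitochondrial HSP70, did not share this pattern and stood at 48.4, 46.7, 58.1 and 41.1 CPM (0.12 ± 0.19, adjusted p = 0.717). The 10 remaining DNAJC genes had a median of 0.02 over all nuclei, and none passed the test there or in a class.

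Within classes, 16 results passed the threshold in all, 15 lower and 1 higher in KI, from 8 genes. These 16 results were 2.68% of the 598 tests of chaperone genes. The background over all genes was 2.58%, so the pooled count was near the background. The number and its split by direction changed with a library left out, as given below beside the share of all genes. In CA1 pyramidal neurons 5 of 58 genes tested were lower (background 2.69%) and 1 was higher (background 4.48%). In inhibitory neurons 5 of 55 were lower (background 0.420%), in CA3 pyramidal neurons 2 of 55 (background 0.885%), in DG granule neurons 2 of 59 (background 4.95%) and in mossy cells 1 of 36 (background 0.179%). The share in DG granule neurons was below the background. No gene of 51 tested passed in astrocytes (background 0.344%), of 53 in oligodendrocytes (0.795%), of 38 in microglia (1.04%) or of 43 in OPC (0.0106%), by edgeR. At an unadjusted p under 0.05 there were 10 genes in astrocytes (19.6%, background 12.0%), 12 in oligodendrocytes (22.6%, background 14.5%), 3 in microglia (7.89%, background 12.4%) and 7 in OPC (16.3%, background 9.95%). DESeq2 gave 2 genes in astrocytes (3.92%, background 0.409%), 1 in oligodendrocytes (1.89%, background 0.912%), and 0 in microglia (background 0.0426%) and OPC (background 0.0212%). An effect past the threshold in neurons and not in glia is not shown to differ between them, and that difference was not tested. Dnajb3, Dnajb7 and Hspa1l were too sparse to be tested in any class.

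**Figure D5:**
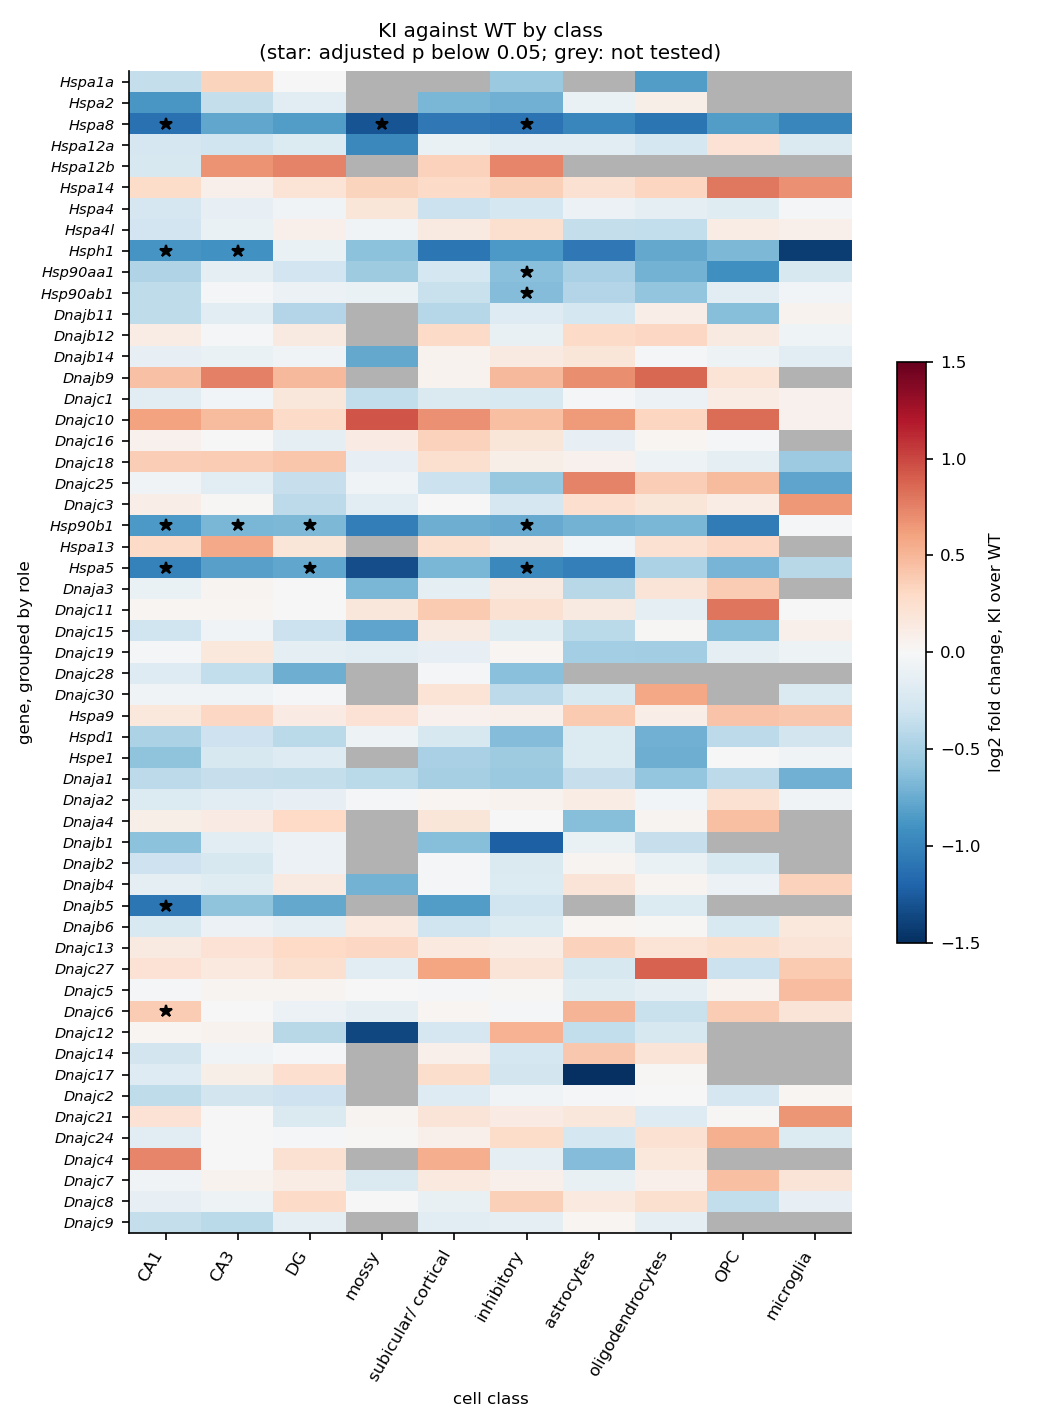
Log2 fold change of KI over WT for 55 chaperone genes in 10 classes as a colour scale, with stars at the 16 results past an adjusted p of 0.05 and grey where a gene was too sparse to test. The stars sit on Hspa5, Hsp90b1, Hspa8, Hsph1, Hsp90aa1, Hsp90ab1, Dnajb5 and Dnajc6, in neuronal classes.

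Other genes of the same pathways were read from a list that was chosen with earlier results of these data known. Of 24 further ER chaperones and genes of the unfolded protein response, 5 were lower in KI in CA1 pyramidal neurons (background 2.69%) and 2 over all nuclei (background 0.382%), and none was higher in either. In DG granule neurons 4 were lower (background 4.95%) and 1, Sec63, was higher (background 4.91%). In inhibitory neurons 3 were lower (background 0.420%), in CA3 pyramidal neurons 1 (background 0.885%), in astrocytes 1 of 21 tested (background 0.130%) and in mossy cells 1 of 10 (background 0.179%). Calr, a lectin chaperone that retains calcium in the ER, stood at 75.7, 65.8, 28.1 and 35.4 CPM over all nuclei, with both KI libraries far below WT (-1.11 ± 0.13, adjusted p = 0.0371). Pdia6, a disulfide isomerase that binds Hspa5, stood at 52.2, 46.9, 24.5 and 25.0 CPM (-0.95 ± 0.10, adjusted p = 0.0366). In CA1 pyramidal neurons Pdia3 (-0.76, adjusted p = 0.0416), Pdia4 (-1.26, adjusted p = 0.0367) and Xbp1, a transcription factor of the unfolded protein response (-0.91, adjusted p = 0.0322), were lower too. Calr and Pdia6 are among the 5 of 20 genes of this list with a promoter in the table that hold the ER stress response element, and the other 3 are Canx, Creld2 and Syvn1.

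Of 24 cochaperones of HSP70 and HSP90, 0 passed edgeR's test over all nuclei (background 0.889%), and 11 had an unadjusted p under 0.05 (background 24.3%). Within classes 1 of 24 passed in CA1 pyramidal neurons (background of genes lower 2.69%), 1 of 24 in oligodendrocytes (background of genes higher 0.624%) and 1 of 18 in microglia (background of genes higher 0.440%). Stip1, which bridges HSP70 and HSP90, was lower in CA1 pyramidal neurons at 32.0, 27.7, 13.3 and 16.4 CPM (-0.92 ± 0.15, adjusted p = 0.0207). Fkbp5, an HSP90 cochaperone induced by glucocorticoids, was higher in KI in oligodendrocytes at 178, 165, 351 and 436 CPM (1.26 ± 0.16, adjusted p = 0.0140) and in microglia at 616, 654, 1093 and 1395 CPM (0.96 ± 0.22, adjusted p = 0.0174). Its libraries did not overlap in these classes but did in DG granule neurons, at 128, 130, 99.99 and 136 CPM. Of 9 genes listed as small heat shock proteins, 7 were tested over all nuclei, where 0 passed and 3 had an unadjusted p under 0.05. Of 2 tested in DG granule neurons and 2 in oligodendrocytes, 1 was lower in each (background 4.95% and 0.171%). In DG granule neurons the lower gene was Hspb11 (-0.64), whose place in that family was not examined. Cryab, abundant in oligodendrocytes, stood there at 314, 191, 48.6 and 84.7 CPM and was lower in KI (-1.91 ± 0.29, adjusted p = 0.0317). None of 9 subunits of the chaperonin TRiC, 12 mitochondrial chaperones and proteases or 6 heat shock factors and their binding partner passed over all nuclei or in CA1 pyramidal neurons. Over all nuclei 7, 1 and 0 of these had an unadjusted p under 0.05.

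Set beside the sequences, the genes with an ER stress response element split. Hspa5 and Hsp90b1 passed the test in 3 and 4 classes, and Dnajc3 in none, with fold changes of -0.39 in DG granule neurons, 0.09 in CA1 and 0.01 in CA3 pyramidal neurons. Those with a 3-unit heat shock element split as well, with Hsph1 past the threshold in 2 classes and Hspd1, Hspe1 and Dnajb6 in none.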

How the data were processed

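Counts were the deposited matrices, which the authors made with Cell Ranger 7.0.1 per the file headers and with mm10 per the labels. Values are unnormalized UMI counts. Which annotation and whether intronic reads were counted are not given in the sources used here. The study's own test took single nuclei as units and was not used here, since nuclei of a mouse are not replicates.

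Of 55640 barcodes, 345 with fewer than 500 genes or over 5% mitochondrial UMIs were removed. Doublets were scored per library (Scrublet in scanpy 1.11.5, expected rate 0.08), and those above 0.25 (3263, 5.90%) were removed. Principal components (30) of 2000 variable genes, without the chaperone genes, were clustered (Leiden, 20 neighbours, resolution 0.8). Names required that 3 or more markers of a class, and 50% of its list, were raised 2 times, that over 50% of the nuclei scored highest for that class, that no other class led among the 10 leading genes, and a median doublet score of at most 0.12. Classes needed 20 nuclei in every library. Ependymal cells had fewer.

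Counts were summed per library and class and tested with edgeR 4.0.16 (quasi-likelihood test, TMM, filterByExpr) in R 4.3.3. P-values were adjusted by Benjamini-Hochberg over all genes of a comparison, with a threshold of 0.05. Class pairs and class-by-genotype terms had the library as a block. The procedure was tested on simulated data. Depth was 73009975 to 80913580 UMIs per library. The replicates of a group differed beyond counting noise, with a chi-square per degree of freedom of 15.4 in WT and 43.0 in KI.

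The genes named are 18 fixed ones, those past the threshold with at least 10 CPM and groups that did not overlap, and up to 2 per class that were highest there in all 4 libraries. Others were named after their values were seen. The values of 1 gene are not reported here on their own. The members, lists and tests were chosen with earlier results of these data known. Alternatives were DESeq2 1.42.0, library totals, no filter, doublets kept, at least 1000 genes, nuclei gated by their own markers, the replicate number as a block, each library left out, and ribosomal protein transcripts as the scale, which was added after seeing the data.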

Additional observations from a re-analysis of the deposited data

Results flagged for a closer look

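For 7 of 59 genes the KI effect differed between DG granule and CA1 pyramidal neurons (11.9%, background over all genes 13.5%), and for 2 of 57 between DG granule and CA3 pyramidal neurons (3.51%, background 11.5%), by edgeR's class-by-genotype term with Benjamini-Hochberg adjustment over all genes. Differences are log2 values of the KI effect in DG granule neurons minus that in the pyramidal class. Hsph1 differed by 0.80 from CA1 and by 0.83 from CA3 pyramidal neurons, as described above. Dnajc6 differed by -0.46 from CA1 (adjusted p = 0.00487), with effects of -0.09 in DG granule and 0.38 in CA1 pyramidal neurons.

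Dnajc3 differed by -0.48 from CA1 (adjusted p = 0.0107) and by -0.40 from CA3 (adjusted p = 0.0275). It stood at 66.2, 63.6, 48.3 and 41.5 CPM in DG granule neurons, where KI lay below WT, and at 57.0, 58.5, 57.3 and 58.5 CPM in CA1 pyramidal neurons, where the libraries were level. Dnajc1 differed by 0.35 from CA1 (adjusted p = 0.0178) and Dnajc21 by -0.42 (adjusted p = 0.0316). Hspa4l differed by 0.36 (adjusted p = 0.0345) and Hsp90ab1 by 0.30 (adjusted p = 0.0413), and both passed in 5 of 10 settings. Of the 9 differences, the 2 of Hsph1 were the only ones past the threshold without WT replicate 1 and without WT replicate 2. The other 7 were lost there, at adjusted p from 0.138 to 0.438 and from 0.0823 to 0.410. Without KI replicate 1 those of Dnajc21 from CA1 (0.1205) and Dnajc3 from CA3 (0.174) were lost too. In DG granule neurons most WT and most KI nuclei fell into different clusters, and the part of this split in the differences was not tested.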

How the results depend on the processing

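No call changed sign in any of the 12 alternatives for the 17 values of KI against WT that passed. Of these, 17 stayed past with no filter, with the replicate block and without KI replicate 2, 16 with library totals and with at least 1000 genes, 15 without KI replicate 1 and with ribosomal scaling, 14 with DESeq2, 14 of 16 with nuclei gated by their own markers, 12 with doublets kept, 6 without WT replicate 2 and 1 without WT replicate 1. Leaving out a library leaves a group with 1 sample, which is assumed to vary like the other group. The 9 class-pair differences over 1 on the log2 scale stayed past in 81 of 81 comparisons.

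The count of chaperone genes past the threshold over all nuclei (1) was 9 with DESeq2, 5 with no filter, 0 with doublets kept (16 at an unadjusted p under 0.05), 8 with the replicate block and 6 with ribosomal scaling, and 0 to 22 with a library left out (0 without WT replicate 1, 3 without WT replicate 2, 5 without KI replicate 1, 22 without KI replicate 2, of which 9 were higher). The share of all genes called moved from 0.889% to 8.42%, 2.51%, 0.771%, 9.002% and 11.6% in these settings and to 0.567%, 1.15%, 4.91% and 32.4% with a library left out. Within classes (16) it was 45 with no filter, 36 with the replicate block, 26 with ribosomal scaling, and 2 to 120 with a library left out (2, 6, 65 and 120 in the same order, of which 0, 0, 10 and 40 were higher). There the members' share was 2.68% against 2.58% of all genes, and became 5.03% against 2.80%, 6.02% against 5.65%, 4.35% against 5.21%, and 0.321%, 0.946%, 10.2% and 18.9% against 0.538%, 0.628%, 8.47% and 18.5%. For class-by-genotype terms (9) it was 2 to 21 (3, 2, 13 and 21), with 5.90%, 5.88%, 14.1% and 19.1% of all genes called against 12.5%. Same-numbered libraries share only a number: the correlation of their deviations was 0.026 over all nuclei and -0.14 to 0.38 over the 15 classes, highest in the subicular or cortical neurons, where the replicate block moved the count from 0 to 4. The causes were not tested. With doublets kept, the share of all genes at an unadjusted p under 0.05 is not given, so the 16 genes are only a count. Library totals moved the median of all genes in DG granule neurons from 0.00 to -0.13 and ribosomal scaling that over all nuclei to 0.16.

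Class pairs (71, 40 higher and 31 lower) gave 54 to 79, split 53 to 26 with library totals, while the share of all genes called went from 42.4% to between 27.4% and 44.1%. With library totals the 23 calls within classes (3.85% against 2.78% of all genes) were all lower, and with ribosomal scaling 7 of 26 were higher.

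The sign turned only for values that had not passed. Over all nuclei these were Dnajc5 (0.11 with ribosomal scaling, -0.10 to 0.00047 with a library left out), Dnajc3 (0.029 with ribosomal scaling), Hspa4l (-0.025 with library totals, -0.21 to 0.21 with a library left out), Hspa1b (-0.51 to 0.51), Hspa1a (-0.55 to 0.14) and Hspa9 (-0.19 to 0.35). In CA3 pyramidal neurons it was Dnajc3 (-0.070 with library totals, -0.0083 with no filter, -0.0027 with the replicate block, -0.24 to 0.21 with a library left out). In DG granule neurons they were Hspa4l (-0.070 with library totals, -0.22 to 0.31) and Hsp90ab1 (-0.25 to 0.081). Genes under about 2 CPM, such as Hspa1a, could show only large differences at this depth.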

Other observations

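Across the 62 chaperone genes the log2 fold change of KI over WT in all nuclei rose with the length of the annotated gene (Spearman's rho 0.42), while over 21693 genes with a length it did not (rho 0.04). Within the 15 classes rho over the chaperone genes ranged from 0.13 in mossy cells (36 genes) to 0.68 in committed OPC (14 genes), at 0.17 in DG granule neurons, 0.18 in oligodendrocytes, 0.31 in CA1 pyramidal neurons and 0.45 in inhibitory neurons, and over all genes from -0.09 to 0.17. All points come from the same 4 libraries and share their depth, and the values are a description.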
